A study of Mus musculus with 8 samples.

Results

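The comparison concerns 2 inhibitors of the same pair of enzymes, I-CBP112 and C646, in fibroblasts undergoing direct cardiac reprogramming. It covers every gene with a mean normalised count above 0, which held for 34250 of the 50600 genes listed, and takes for each gene the log2 fold change in the authors' deposited table for I-CBP112 minus that in the table for C646. No measured difference entered the choice of genes. The study had 8 RNA-seq libraries of mouse embryonic fibroblasts of strain C57BL/6, and 4 of them, 2 with 5 µM I-CBP112 and 2 with 5 µM C646, carry the comparison. The other 4 are 2 libraries with 0.1% ethanol and 2 with 1% DMSO, and they are used as background. All 4 groups had been transduced with retroviral Gata4, Hand2, Mef2c and Tbx5 (GHMT) and received their additions for 7 days, so no group lacks the factors. The labels do not say whether the 2 libraries of a group came from separate cultures. The p-values measure only the spread between libraries within groups, which the authors' fit shared across the 4 groups.

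CBP and p300, the products of Crebbp and Ep300, are coactivators that transcription factors recruit to enhancers and promoters. Each has a catalytic domain that transfers acetyl groups to histones and other proteins, and a bromodomain that binds acetylated lysine and helps to hold the enzyme on chromatin. I-CBP112 occupies the bromodomain and leaves the catalytic site free, while C646 competes with acetyl-CoA at the catalytic site. In direct cardiac reprogramming, the forced factors switch on heart muscle genes in fibroblasts, and the fibroblast programme of matrix, growth factor and inflammatory genes has to be turned down. The comparison asks which genes differ between cells given the bromodomain inhibitor and cells given the catalytic inhibitor, at the same dose and time. The values used here are of RNA only, so how far either function was inhibited is unknown.

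Levels below are group means of normalised counts, rebuilt from the mean over all libraries and the 3 fold changes. The deposited tables hold no values of single libraries, so whether the libraries of 2 groups overlap cannot be shown, and the spread enters only through the standard error (SE). The difference I-CBP112 minus C646 is on the log2 scale, with positive values higher under I-CBP112, and the reference group cancels from it. Values after ± are SEs, with 2 libraries per group throughout. A gene was called when the difference over its rebuilt SE gave a two-sided p, adjusted by Benjamini-Hochberg over 14830 genes, below 0.05. The other 19420 genes, with mean counts under 26.1, had no test. Counts are not corrected for transcript length, and levels are compared between groups only.

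I-CBP112 and C646 cells differed at 1453 of the 14830 tested genes, or 9.8%. The count was 501 with the largest SE that the deposited tables allow, and 0 with p taken from a t distribution (4 degrees of freedom), where 1491 genes had an unadjusted p below 0.05. Of the 1453, 695 (4.69%) were higher and 758 (5.11%) were lower with I-CBP112. The difference was at least 2-fold for 423 genes (2.85%), 173 of them higher and 250 lower. The median difference over all tested genes was 0.01 with a median SE of 0.185, and the middle 90% ran from -0.73 to 0.61. The smallest difference among called genes was 0.31 in size. Protein-coding genes held 669 of the higher and 733 of the lower calls, out of 12984 tested.

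**Figure D1:**
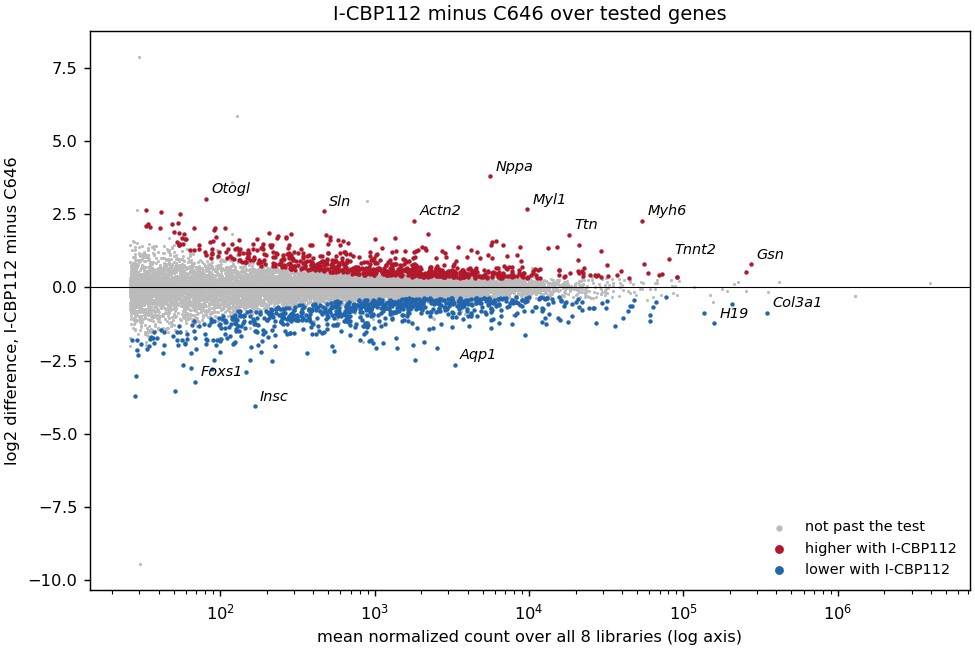
Log2 difference between I-CBP112 and C646 (vertical axis) against the mean normalised count over all libraries (horizontal log axis) for the 14830 tested genes. Grey points are genes not called, coloured points the 695 called higher and 758 called lower with I-CBP112. Cardiac genes such as Myh6 and Ttn lie at the top and Insc, Aqp1 and Col3a1 below 0.

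At most of the called genes, C646 cells lay close to ethanol cells and I-CBP112 cells lay away from them. Over the 1453 called genes, the median absolute log2 change from ethanol in the authors' deposited tables was 0.69 for I-CBP112 and 0.06 for C646, 2 values that share the ethanol libraries. Called genes were selected by the gap between these 2 changes. Over all tested genes the medians were 0.19 for I-CBP112 and 0.07 for C646. A change from ethanol of at least 1 in size was found for 393 of the called genes with I-CBP112 and for 3 with C646. In 17 of the 1453 genes the change with C646 was the larger one. In their own test against the reference, the authors' deposited table for C646 has 2 genes with an adjusted p below 0.05 and that for I-CBP112 has 1468. Of the 2, Gm37167 (57.3 with C646, 0.17 with ethanol) had no test here. Over tested genes, the fold change over its deposited standard error had a standard deviation of 0.61 for C646 and 1.86 for I-CBP112. Such a score has a standard deviation near 1 where no gene differs. The low count for C646 therefore does not show that C646 cells were unchanged.

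The sources used here do not name the solvent of either inhibitor, and DMSO minus ethanol was therefore set beside I-CBP112 minus C646. These 2 differences share no library. Over the 14830 tested genes they had a Pearson r of 0.539 and a Spearman correlation of 0.486, values that describe genes and not independent replicates. Over all 34250 genes with counts, the Pearson r was 0.0896. Of the 1453 called genes, 1320 (90.8%) had the same sign in DMSO minus ethanol, against 64.9% of the genes not called. The authors' deposited table for DMSO has 2368 tested genes with an adjusted p below 0.05, which is 16% of those tested. The overlap was 856 genes, 58.9% of the I-CBP112 minus C646 calls and 36.1% of the DMSO calls, and 838 of them had the same sign. An effect of the inhibitor and an effect of its solvent cannot be told apart from the difference between I-CBP112 and C646 alone.

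**Figure D2:**
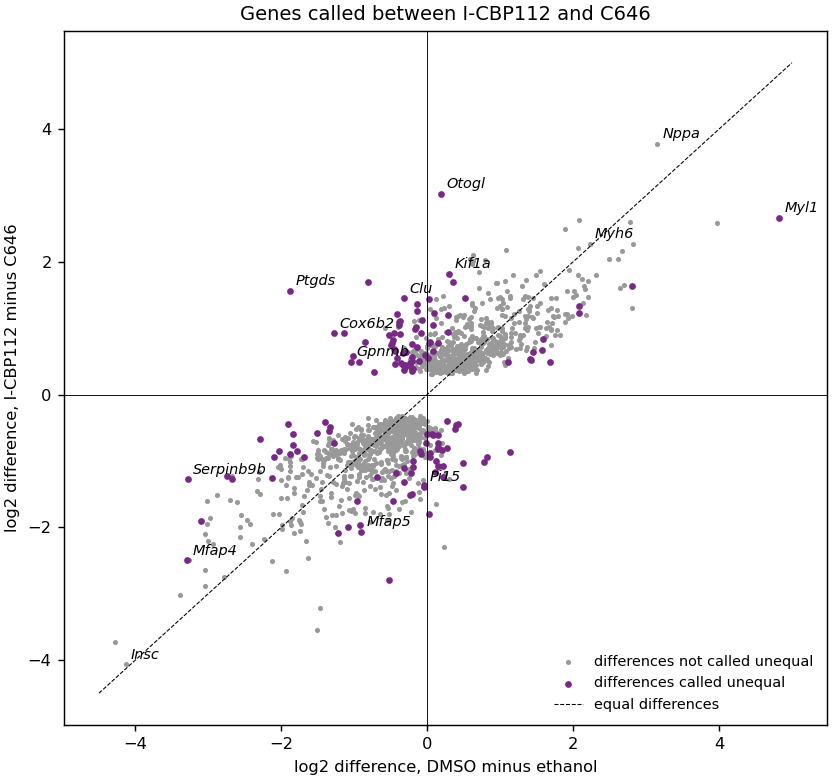
Each point is 1 of the 1453 genes called between I-CBP112 and C646, with DMSO minus ethanol (horizontal axis) and I-CBP112 minus C646 (vertical axis), both log2. Most points, 1320, lie where both differences have the same sign, while Ptgds, Clu and Cox6b2 lie where the signs are opposite.

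A second test asked for each gene whether I-CBP112 minus C646 was unequal to DMSO minus ethanol, and its result is called the excess over DMSO below. The excess passed an adjusted p of 0.05 for 293 of 14830 genes (1.98%), 201 above and 92 below 0, with a median SE of 0.261. Of these, 140 were also called between I-CBP112 and C646, which is 47.8% of the 293 and 9.64% of the 1453. Among the 140 genes, 73 were higher and 67 lower with I-CBP112, and for 73 the DMSO difference had the opposite sign. The DMSO cells received 1% of solvent, and the amount that came with either inhibitor is not given, so the excess is a comparison with that group and no correction for solvent.

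The gene lists described next were drawn up with earlier results of these data known, so their counts describe the lists and support nothing further. Each count is read against the 4.69% and 5.11% of all tested genes called higher and lower. Up to 4 members per direction are named by size of difference, and further members were chosen for their role after their values were seen.

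**Figure D3:**
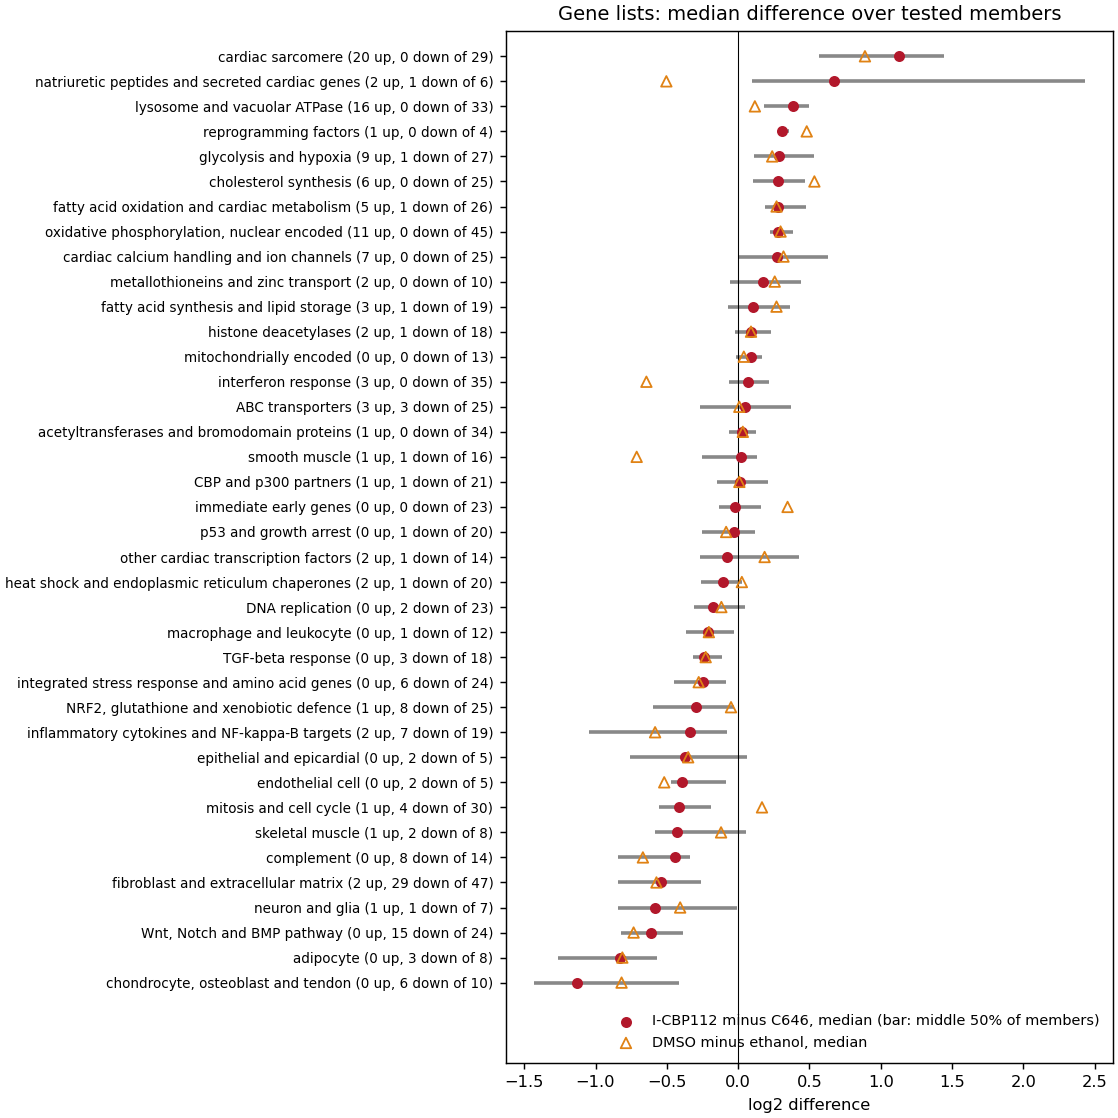
Median log2 difference of I-CBP112 minus C646 (circles, with bars for the middle 50% of members) and of DMSO minus ethanol (triangles) for 38 gene lists, with the members called up and down of those tested. The cardiac sarcomere list is at the top with a median of 1.13, and the chondrocyte, osteoblast and tendon list at the bottom with -1.13.

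The contractile apparatus of heart muscle was the list with the highest median. Of 29 tested sarcomere genes, 20 were higher with I-CBP112 than with C646 and 0 were lower. The median difference was 1.13, against 0.01 over all tested genes, and all 29 values were above 0. Their median from DMSO minus ethanol in the authors' deposited table was 0.89. Another 5 of the 34 listed genes were under the count limit.

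Myh6, the alpha heavy chain of cardiac myosin and the motor of the adult mouse ventricle, had a group mean of 88094 with I-CBP112 and 18214 with C646, beside 19485 with ethanol and 91239 with DMSO. C646 and ethanol cells thus had the low level and I-CBP112 and DMSO cells the high one. The difference was 2.27 ± 0.16, a 4.84-fold higher level (adjusted p = 2.29e-40), with an excess over DMSO of 0.05 ± 0.23. Actn2, the alpha-actinin that anchors thin filaments at the Z-disc, had 2414 with I-CBP112, 498 with C646, 532 with ethanol and 3776 with DMSO. Its difference was 2.28 ± 0.14 (adjusted p = 3.22e-54). Ttn, the giant spring protein titin, had 31570.3 and 9091 with the inhibitors, a difference of 1.80 ± 0.17, beside 8275 with ethanol and 23377 with DMSO. By GENCODE M21 on GRCm38, Myh6 (ENSMUSG00000040752.15) lies at chr14:54941921-54966927 on the minus strand and Ttn (ENSMUSG00000051747.14) at chr2:76703980-76982547, also on the minus strand. Myh7, the beta heavy chain of fetal and slow muscle, had 155 and 39.6, a difference of 1.97 ± 0.42 (adjusted p = 7.66e-05).

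Thin filament genes and other myosin chains were higher as well. Tnnt2, cardiac troponin T, had 111905 with I-CBP112 and 57336 with C646, a difference of 0.96 ± 0.12. Actc1, cardiac alpha-actin, differed by 1.44 ± 0.13, and Tnni3, the adult cardiac troponin I, by 1.56 ± 0.14. Tnnc1, troponin C, differed by 1.34 ± 0.15, and Tpm1, the tropomyosin that covers the myosin sites on actin, by 0.44 ± 0.13. The atrial myosin light chains Myl7 and Myl4 differed by 1.23 ± 0.11 and 1.38 ± 0.48, and the thick filament regulator Mybpc3 by 1.44 ± 0.15. The 9 sarcomere genes that did not pass the test had differences down to 0.11.

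Sarcomere genes did not all stand in the same relation to DMSO. Tnni1, the slow skeletal and fetal cardiac troponin I, had 2627 with I-CBP112 and 809 with C646, while ethanol and DMSO cells had 879 and 1128. I-CBP112 was thus above the other 3 groups, and the excess over DMSO was 1.34 ± 0.25 (adjusted p = 3.02e-05). Myoz2, a Z-disc protein that binds calcineurin, had 419 with I-CBP112, 154 with C646, 132 with ethanol and 134 with DMSO, an excess of 1.42 ± 0.41 (adjusted p = 0.0355). Myom2, the M-band protein myomesin, had 7619 against 3317 and an excess of 0.92 ± 0.17. Myl7 was the only sarcomere gene with an excess called below 0, at -0.86 ± 0.15, with a DMSO mean of 58408 above the I-CBP112 mean of 31778. For the other 25 tested sarcomere genes the excess was not called.

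**Figure D4:**
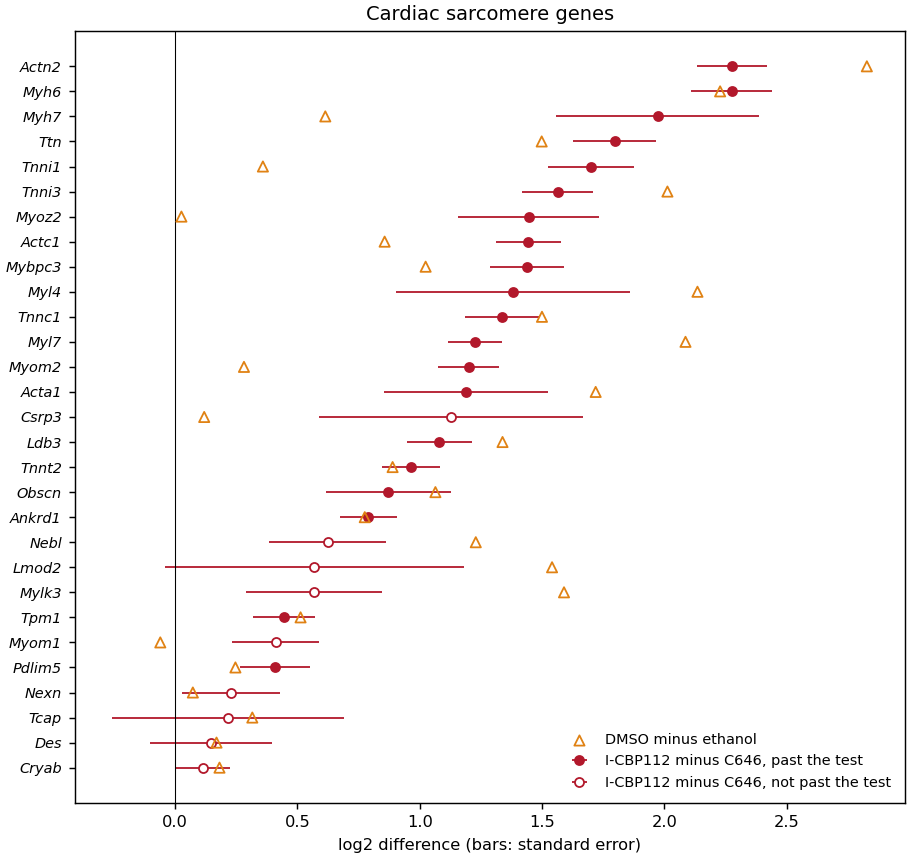
Log2 differences of the 29 tested sarcomere genes for I-CBP112 minus C646, with bars for the standard error, and for DMSO minus ethanol, without bars. All I-CBP112 minus C646 values lie above 0, and Tnni1, Myoz2 and Myom2 show the widest gaps in favour of I-CBP112 among genes whose excess passed the test.

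Promoter sequence is shown for 4 of these genes because MEF2, the family of the forced factor Mef2c, binds an AT-rich element near muscle promoters. The windows are the last 150 bases before the start of the first-listed RefSeq transcript (GRCm38.p6, 5′ to 3′ on the gene's strand), for the sarcomere genes called higher whose window held the letters TANNNNTAG on either strand. Capitals mark these letters, merged where matches overlap, and in Ankrd1 also AGATAA on the other strand, which GATA factors such as Gata4 are known to bind. N stands for any base, so a match need not be AT-rich. The marked TATGAGTAG in Myoz2 and CTAGCTATA in Ankrd1 hold G or C at these places. Tnni1 lies at chr1:135799271-135799420 on the plus strand, Myoz2 at chr3:123034988-123035137 on the minus strand, Mybpc3 at chr2:91117994-91118143 on the plus strand and Ankrd1 at chr19:36119845-36119994 on the minus strand.
Tnni1: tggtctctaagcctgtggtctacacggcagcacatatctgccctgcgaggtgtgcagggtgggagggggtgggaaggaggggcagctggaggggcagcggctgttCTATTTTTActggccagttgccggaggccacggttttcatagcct
Myoz2: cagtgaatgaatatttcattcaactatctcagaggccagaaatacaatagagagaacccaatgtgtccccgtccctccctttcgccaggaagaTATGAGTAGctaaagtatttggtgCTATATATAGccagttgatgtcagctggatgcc
Mybpc3: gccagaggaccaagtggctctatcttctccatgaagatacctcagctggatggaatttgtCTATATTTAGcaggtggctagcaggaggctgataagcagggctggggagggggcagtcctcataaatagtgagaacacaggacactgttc
Ankrd1: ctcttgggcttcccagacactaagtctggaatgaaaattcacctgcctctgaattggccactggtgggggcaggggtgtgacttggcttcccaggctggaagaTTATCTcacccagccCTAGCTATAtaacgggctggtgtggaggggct

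In the 250 bases before the start, the MEF2 letters were found in 11 of 34 windows of the sarcomere genes (32.4%), which cover 24 of the 29 genes. The share was 13.4% over 13324 windows of all tested genes, 15.04% for genes called higher with I-CBP112 and 12.7% for genes called lower. The letters AGATAA were in 6 of the 34 sarcomere windows (17.6%) and in 5.88% of all windows. The T-box letters AGGTGTGA were in 1 of the 34 and in 0.683% of all. A match describes letters in a window, for MEF2 also letters that are not AT-rich, and no binding was measured. Of the 4 genes printed, Tnni1 and Myoz2 had a called excess over DMSO, and Mybpc3 (0.41 ± 0.21) and Ankrd1 (0.01 ± 0.17) did not.

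Calcium handling genes were higher with I-CBP112 where they were called. Of 25 tested members, 7 were higher and 0 lower, with a median difference of 0.27. Sln, sarcolipin, a small inhibitor of the calcium pump in atrial and skeletal muscle, had 812 with I-CBP112 and 133 with C646, beside 117 with ethanol and 807 with DMSO, a difference of 2.61 ± 0.30. Slc8a1, the sodium-calcium exchanger, differed by 1.28 ± 0.11, and Ryr2, the calcium release channel of the cardiac sarcoplasmic reticulum, by 1.09 ± 0.12. Pln, phospholamban, differed by 1.01 ± 0.20. Atp2a2, the calcium pump, Casq2, the calcium store protein, and Hcn4, the pacemaker channel, had smaller differences of 0.78, 0.58 and 0.65. The excess over DMSO was called for 0 of the 25 genes by the same test, and 4 had an unadjusted p below 0.05.

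Among secreted cardiac products, Nppa, the atrial natriuretic peptide, had the highest difference of all genes named by the rule. Its mean was 13308 with I-CBP112, 967 with C646, 819 with ethanol and 7255 with DMSO. The difference was 3.78 ± 1.29, with a 95% interval of 1.25 to 6.32 and an adjusted p of 0.0384. It lost its call when all genes with counts entered the same test (adjusted p = 0.0869). Dkk3, a secreted glycoprotein of the dickkopf family, had 14611 with I-CBP112 against 7832 with C646 and 5394 with DMSO, an excess of 1.42 ± 0.23. Fgf16, a growth factor of the embryonic heart, was lower, at 127 against 317, a difference of -1.32 ± 0.25.

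The forced factors themselves were measured together with the endogenous genes, since counts do not separate vector RNA from the cell's own. Mef2c was higher with I-CBP112, 20285 against 14387, a difference of 0.50 ± 0.13 (adjusted p = 0.00372). Ethanol and DMSO cells had 14319 and 24263. Gata4 had 10966 and 8850.4 (difference 0.31 ± 0.12, adjusted p = 0.0731), Hand2 had 9825 and 7958 (0.30 ± 0.12, adjusted p = 0.0748) and Tbx5 had 8940.2 and 7404 (0.27 ± 0.35, adjusted p = 0.815). None of these 3 passed the test, and the interval for Tbx5 ran from -0.42 to 0.96.

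Other cardiac transcription factors showed no common direction. Of 14 tested, 2 were higher and 1 lower, with a median of -0.08. Tbx2, a repressor of the chamber programme in the atrioventricular canal, had 532 against 303 (0.81 ± 0.24), and Myocd, the coactivator myocardin, had 1334 against 786 (0.76 ± 0.17). Tbx20, a T-box factor needed for heart growth, was lower, at 957 with I-CBP112 and 1367 with C646, while DMSO cells had 1874. Its difference was -0.51 ± 0.17 and its excess -0.89 ± 0.23 (adjusted p = 0.0114). Nkx2-5 and Isl1 were under the count limit.

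RNA of the targeted enzymes did not differ measurably. Crebbp had 1994 with I-CBP112 and 1947 with C646, a difference of 0.03 ± 0.21 with a 95% interval of -0.38 to 0.45. Ep300 had 1602 and 1539, a difference of 0.06 ± 0.15 with an interval of -0.24 to 0.35. Of 34 tested acetyltransferases and bromodomain proteins, 1 was called, Phip, at 0.39 ± 0.13, a share of 2.94% against the 9.8% of all genes, with a median of 0.03. Among 21 partners of CBP and p300, 2 were called, a share of 9.52% that is near the background. Cited1, which binds CBP and p300 and is known from embryonic and melanocyte biology, had 549.5 with I-CBP112, 181 with C646, 185 with ethanol and 1150.1 with DMSO, a difference of 1.61 ± 0.23. Creb3l1, a membrane-bound factor for collagen genes, had 657 and 1443, a difference of -1.13 ± 0.23. Of 18 histone deacetylases, Hdac11 (0.93 ± 0.20) and Hdac9 (0.89 ± 0.21) were higher and Hdac7 (-0.82 ± 0.20) was lower.

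Matrix and fibroblast genes formed the longest list of lower calls. Of 47 tested members, 29 were lower and 2 higher with I-CBP112, with a median difference of -0.54. Their median in DMSO minus ethanol in the authors' deposited table was -0.57. Col3a1 (ENSMUSG00000026043.18, chr1:45311538-45349706 on the plus strand), the fibrillar collagen of elastic tissue, had 237283 with I-CBP112 and 433769 with C646, beside 442902 with ethanol and 279500.0 with DMSO. The difference was -0.87 ± 0.12 (adjusted p = 2.17e-11), and again C646 stood with ethanol. Col1a2 had 89199 and 163512 (-0.87 ± 0.12), and Sparc, a collagen-binding matrix protein, had 160320.0 and 235021 (-0.55 ± 0.12). Dcn and Lum, small proteoglycans that organise collagen fibrils, differed by -0.93 ± 0.12 and -1.06 ± 0.14. Pdgfra, a receptor that marks fibroblasts, had 6514 and 11346 (-0.80 ± 0.11).

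Elastic fibre genes differed by different amounts. Mfap4, a microfibril-associated glycoprotein, had 541 with I-CBP112 and 3046 with C646, a 5.63-fold lower level, while DMSO cells had 344. Eln, elastin, had 7859 and 18716 with 4701 in DMSO cells. For both, DMSO cells were the lowest, and the excess was above 0, at 0.79 ± 0.23 and 0.87 ± 0.17. Mfap5, a second microfibril protein, had 366 with I-CBP112 against 1532 with C646, 1418 with ethanol and 759 with DMSO. Here I-CBP112 cells were the lowest, with an excess of -1.17 ± 0.27 (adjusted p = 0.00241). The 2 matrix genes with higher calls were Spp1, osteopontin, at 2103 against 1223 (0.78 ± 0.16), and Thbs2, an antiangiogenic thrombospondin, at 0.39 ± 0.12.

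Genes of growth factor pathways in the mesenchyme were lower with I-CBP112 where they were called. Of 24 tested Wnt, Notch and BMP genes, 15 were lower and 0 higher, with a median of -0.61, beside -0.73 in DMSO minus ethanol. With the largest SE that the deposited tables allow, 7 of the 15 remained. Dkk2, a secreted Wnt antagonist, had 667 with I-CBP112 and 2602 with C646, beside 2478 with ethanol and 1312 with DMSO, a difference of -1.96 ± 0.15. It alone in the list had a called excess, of -1.05 ± 0.21 (adjusted p = 0.000162). Lgr5, a receptor for R-spondins, had 351 and 1224 (-1.80 ± 0.21), and Sfrp2, a secreted Wnt-binding protein, had 3116 and 8063 (-1.37 ± 0.45). Grem1, an antagonist of BMPs, differed by -1.26 ± 0.15. Notch pathway members among the calls were the ligand Jag1 (-0.62), the receptor Notch3 (-0.60) and the targets Hes1 (-0.64) and Heyl (-1.12).

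Of 18 tested TGF-beta response genes, 3 were lower and 0 higher, with a median of -0.24, beside -0.23 in DMSO minus ethanol. Inhba, a subunit of activin, had 316 with I-CBP112 and 750.3 with C646 (-1.25 ± 0.18). Ltbp1, which holds latent TGF-beta in the matrix, differed by -1.03 ± 0.34, and Bambi, a decoy receptor, by -0.67 ± 0.19.

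The largest differences outside the lists were among lower genes. Insc, an adaptor that orients the mitotic spindle, had 18.7 with I-CBP112 and 311 with C646, a 16.7-fold lower level. Ethanol cells had 319 and DMSO cells 18.2, so DMSO cells were as low as I-CBP112 cells. Insc (ENSMUSG00000048782.15) lies at chr7:114743694-114850383 on the plus strand. The difference was -4.06 ± 0.36 (adjusted p = 1.06e-26), with an excess of 0.07 ± 0.51. At Aqp1, the water channel, I-CBP112 and DMSO cells were again low and C646 and ethanol cells high, with 942 for I-CBP112, 5869.7 for C646, 5689 for ethanol and 689.8 for DMSO (-2.64 ± 0.16). Foxs1, a forkhead factor of pericytes and neural crest, had 12.7 and 118 (-3.21 ± 0.47), and Plb1, a phospholipase, had 9.46 and 111 (-3.55 ± 0.55). Timp4, a metalloproteinase inhibitor, Bmx, a tyrosine kinase, and Mfsd2a, a lipid transporter, differed by -2.75, -2.66 and -2.49. Serpina3m differed by -2.25, and reads may be split among its near-identical paralogs.

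On the higher side, Otogl, an otogelin-like glycoprotein, had 232 with I-CBP112 and 28.5 with C646, while ethanol and DMSO cells had 29.3 and 33.4. The 3 other groups lay close together, the difference was 3.03 ± 0.46 (adjusted p = 6.46e-09) and the excess 2.84 ± 0.67 (adjusted p = 0.00354). Kif1a, a motor protein that carries synaptic vesicle precursors in neurons, had 4477 with I-CBP112, 1266 with C646, 1383 with ethanol and 1696 with DMSO. Its difference was 1.82 ± 0.14 and its excess 1.53 ± 0.20. Kcnh7, a potassium channel, differed by 2.01 ± 0.37 and Car8, a protein related to carbonic anhydrases, by 2.03 ± 0.45. Adprhl1, a heart protein, Map3k7cl and Ppm1j, a phosphatase, differed by 2.50, 2.21 and 1.87. Abra, an actin-binding protein of striated muscle, had 381 and 109 (1.81 ± 0.23).

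**Figure D5:**
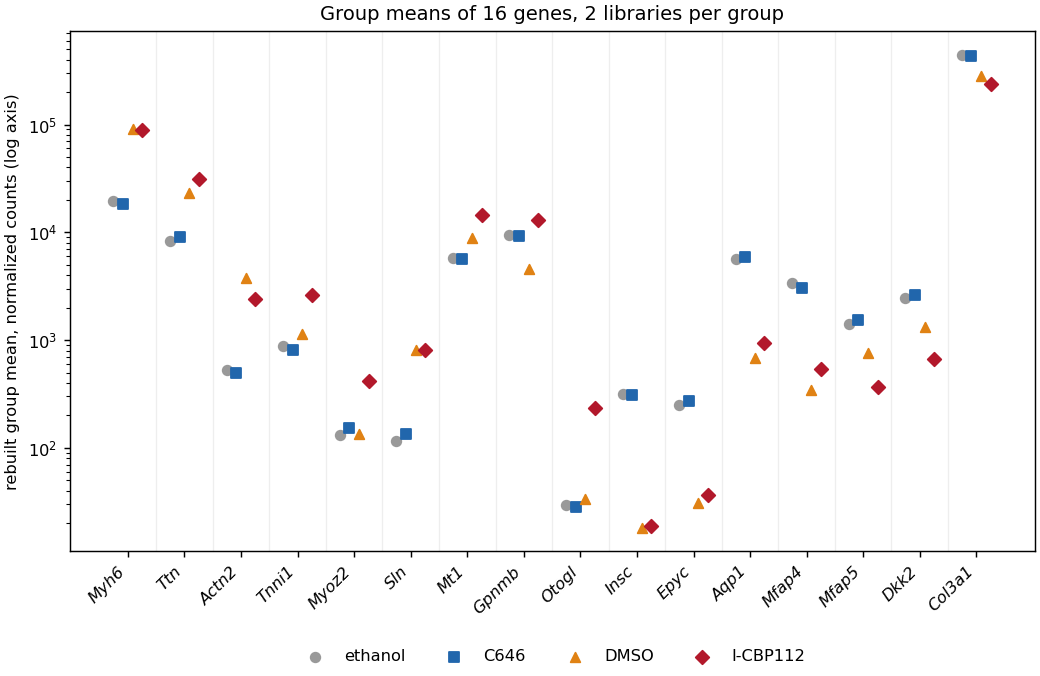
Rebuilt group means of normalised counts (vertical log axis) for 16 genes in the ethanol, C646, DMSO and I-CBP112 groups, 2 libraries each. Ethanol and C646 points lie together for these genes, while DMSO is beside I-CBP112 for Myh6, Sln and Insc and apart from it for Myoz2, Otogl and Gpnmb.

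Among the most abundant called genes, Gsn, the actin-severing protein gelsolin, had 384780.0 with I-CBP112 and 221202 with C646 (0.80 ± 0.17). H19, an imprinted noncoding RNA, had 97359 and 228723 (-1.23 ± 0.17), and DMSO cells had 87099. Malat1, a nuclear noncoding RNA, had 291988 and 202482 (0.53 ± 0.15). Gas6, a ligand of TAM receptors, and Pam, an enzyme that amidates peptides and is abundant in atrial muscle, differed by 0.34 ± 0.11 and 0.36 ± 0.10, and the secreted glycoprotein Fstl1 by -0.34 ± 0.11.

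Markers of other cell types were compared over whole lists, because bulk RNA cannot tell fewer cells of a type from less RNA per cell. Fibroblast markers summed to 589455 with I-CBP112 and 982203 with C646, beside 992589 with ethanol and 647345 with DMSO. Col3a1 alone gave 237283 of the I-CBP112 sum and 433769 of the C646 sum. Cardiomyocyte markers summed to 269629 and 97757 with the inhibitors, and to 96195 and 249328 with ethanol and DMSO. Vim, a filament protein of mesenchymal cells, did not follow the other fibroblast markers, with 128290.0 for I-CBP112 and 126029 for C646 (difference 0.03 ± 0.12). The fibroblast marker Thy1 was not called either (difference -0.35, adjusted p = 0.715). Endothelial markers summed to 660.3 with I-CBP112 and 1001 with C646, but Pecam1, Cdh5 and Emcn were under the count limit and Cldn5 gave no value. In the longer endothelial list, 2 of 5 tested genes were lower and 0 higher, the receptors Tek (-0.89 ± 0.21) and Flt1 (-0.47 ± 0.13). Macrophage markers summed to 2638 and 3028, and 1 of 12 tested genes of that list was called, Adgre1 (-0.73 ± 0.24). Neuron and glia markers summed to 6770.5 with I-CBP112 and 4915.5 with C646, beside 4974 with ethanol and 4158 with DMSO, nearly all of it Map2 and Tubb3. Gfap, Rbfox3 and Sox10 were under the count limit. Of 7 tested genes of the longer list, Map2, a microtubule protein, was higher (0.44 ± 0.15) and Gap43, a growth cone protein, lower (-0.84 ± 0.29). The share of these cell types in the differences was not tested.

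Cartilage, bone and tendon genes were lower with I-CBP112 for 6 of 10 tested members and higher for 0, with a median of -1.13. Their median in DMSO minus ethanol was -0.82. Epyc, a cartilage proteoglycan, had 36.9 with I-CBP112 and 271 with C646 (-2.88 ± 0.31). Tnmd, tenomodulin, a marker of tendon cells, had 60.8 and 347 (-2.51 ± 0.27). Sox9, the master factor of cartilage, had 208 and 447 (-1.10 ± 0.22), while Col2a1, Acan and Sp7 were under the count limit. Of 8 tested adipocyte genes, Plin1 (-2.23 ± 0.47), Fabp4 (-1.07 ± 0.19) and Lpl (-0.55 ± 0.15) were lower. The 8 had a median of -0.83, beside -0.81 in DMSO minus ethanol. Krt14, an epithelial keratin, had 5.86 with I-CBP112 and 47.6 with C646 (-3.02 ± 0.69), and Epcam and Cdh1 were under the limit.

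Smooth muscle genes gave few calls between the inhibitors and several excesses over DMSO. Of 16 tested members, 1 was higher and 1 lower between I-CBP112 and C646, with a median of 0.02, whereas the authors' deposited table for DMSO has 12 of them lower than the reference and 1 higher. Synpo2, an actin-bundling protein, had 531 with I-CBP112 and 194 with C646 (1.45 ± 0.30), and Aoc3, an amine oxidase of vessels and fat, had 33.8 and 133 (-1.97 ± 0.37). The excess over DMSO was above 0 and called for 5 genes, named here after their values were seen: Actg2, Tpm2, Tagln, Myh11 and Cnn1. Tagln, a calponin-like actin-binding protein, had 19067 with I-CBP112, 17248 with C646, 17455 with ethanol and 8242 with DMSO, and its difference between the inhibitors was 0.14 ± 0.13 with an interval of -0.11 to 0.40. Tpm2, a tropomyosin, had 17479, 15067, 14955 and 4089.6 in the same order, an excess of 2.08 ± 0.17 (adjusted p = 9.2e-31). At both genes DMSO cells had the lowest mean and the other 3 groups lay close together.

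Skeletal muscle genes were mostly under the count limit, with 8 of 22 tested. Myl1, an essential light chain of fast muscle myosin, had 7649 with I-CBP112 and 1205 with C646, a difference of 2.67 ± 0.13 (adjusted p = 7.34e-88). DMSO cells had 28824 and ethanol cells 1015, so I-CBP112 lay between them, and the excess was -2.16 ± 0.19 (adjusted p = 1.78e-27). Tnnt3, fast troponin T, was lower with 85.5 against 200.3 (-1.23 ± 0.43), as was Actn3, the fast-fibre actinin (-0.89 ± 0.18).

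Energy metabolism genes were mostly higher with I-CBP112 where they were called. Of 45 tested nuclear genes of oxidative phosphorylation, 11 were higher and 0 lower, and all 45 differences were above 0, with a median of 0.28. Their median in DMSO minus ethanol was 0.30, where 12 were higher and 0 lower by the authors' adjusted p. The excess over DMSO was called for 0 of the 45. With the largest SE that the tables allow, 2 of the 11 remained called. Cox7a1 and Cox6a2, the muscle forms of cytochrome oxidase subunits, differed most, with 448 against 137 (1.70 ± 0.29) and 97.5 against 30.7 (1.67 ± 0.43). Atp5a1, the alpha subunit of ATP synthase, differed by 0.43 ± 0.12. Of the 13 listed genes encoded in mitochondria, 0 passed the adjusted p of this test and 2 had an unadjusted p below 0.05. Their differences ran from -0.32 to 0.28 with a median of 0.09, and mt-Co1 had 237149 and 210989. Outside this list, 2 of the 5 tested mitochondrial transfer RNA genes were called, both higher with I-CBP112.

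Of 26 tested genes of fatty acid oxidation and cardiac fuel use, 5 were higher and 1 lower, with a median of 0.28. Their median in DMSO minus ethanol was 0.27. Fabp3, the heart fatty acid binding protein, had 839 with I-CBP112 and 403 with C646 (1.06 ± 0.19). Ppargc1a, a coactivator of mitochondrial biogenesis, had 743 and 404 (0.88 ± 0.19), and Hadhb, an enzyme of beta-oxidation, differed by 0.55 ± 0.12. The lower gene was Lpl, lipoprotein lipase. Glycolysis and hypoxia genes had 9 higher and 1 lower of 27, with a median of 0.29, beside 0.24 in DMSO minus ethanol. Pgam2, the muscle phosphoglycerate mutase, had 3094 and 1193 (1.38 ± 0.15), and Pfkm, the muscle phosphofructokinase, differed by 0.70 ± 0.14. Slc2a1, a glucose transporter, had 1949 against 1301 with 1310.2 and 1227 in ethanol and DMSO cells (0.58 ± 0.15). Vegfa, the angiogenic factor, was lower (-0.61 ± 0.16).

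Cholesterol synthesis had 6 higher and 0 lower of 25 tested genes and a median of 0.28, and the authors' deposited table for DMSO has 16 of them higher than the reference. Pmvk, Dhcr7 and Hsd17b7, enzymes of the pathway, differed by 0.64 ± 0.19, 0.62 ± 0.19 and 0.59 ± 0.12. Of 19 genes of fatty acid synthesis and storage, 3 were higher and 1 lower, with a median of 0.10. Lpin1, a phosphatidate phosphatase, was higher (0.77 ± 0.12) with an excess of 0.63 ± 0.18. The fatty acid elongases Elovl6 and Elovl5 were higher by 0.64 ± 0.15 and 0.44 ± 0.13, and Dgat2, which makes triglyceride, was lower (-1.48 ± 0.36).

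Lysosomal genes were higher with I-CBP112 where they were called, by similar amounts. Of 33 tested members, 16 were higher and 0 lower, with a median of 0.38 and differences up to 0.67. Their median in DMSO minus ethanol in the authors' deposited table was 0.12. With the largest SE that the tables allow, 4 of the 16 remained called. Atp6v1e1, a subunit of the proton pump that acidifies lysosomes, had 8324 with I-CBP112 and 5231 with C646, beside 5079 with ethanol and 5803 with DMSO (0.67 ± 0.13). Hexa, a lysosomal hydrolase, differed by 0.61 ± 0.11, and Mcoln1, a lysosomal calcium channel, by 0.64 ± 0.17. Gpnmb, a glycoprotein of melanosomes and lysosomes, had 13129 with I-CBP112, 9326 with C646, 9404 with ethanol and 4576 with DMSO. I-CBP112 was the highest group and DMSO the lowest, and the excess was 1.53 ± 0.17 (adjusted p = 1.67e-16). Gaa, the enzyme that degrades glycogen in lysosomes, also had a called excess, of 0.62 ± 0.17.

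Metallothioneins, which bind zinc and other metals, were higher. Mt1 had 14586 with I-CBP112 and 5624 with C646, beside 5796 with ethanol and 8857 with DMSO (1.37 ± 0.20, adjusted p = 1.21e-09). Mt2 had 5698 and 2191 (1.38 ± 0.20). The other 8 of 10 tested genes of metal handling did not pass. Among 25 ABC transporters, 3 were higher and 3 lower. Abcb4, a phospholipid exporter of the liver, had 127 with I-CBP112 and 31.0 with C646 (2.04 ± 0.36), and Abca8a and Abca9 were lower (-1.32 ± 0.16 and -1.10 ± 0.17), both with a called excess below 0.

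Called mitosis genes were mostly lower with I-CBP112. Of 30 tested, 4 were lower and 1 higher, with a median of -0.42, whereas the median of DMSO minus ethanol in the authors' deposited table was 0.17. Tpx2, a spindle assembly factor, had 197 with I-CBP112 and 403 with C646, beside 326 with ethanol and 457 with DMSO. Its difference was -1.03 ± 0.20 and its excess -1.52 ± 0.28 (adjusted p = 1.53e-05). Mki67, the proliferation marker Ki-67, had 452 and 750.1 (-0.73 ± 0.18). Cenpe, a kinetochore motor, had 80.4 and 211, and C646 cells were above the 121 of ethanol cells (-1.39 ± 0.37). Ccnd1, cyclin D of the early cell cycle, was lower as well (-0.53 ± 0.18). Cenpa, the centromere histone, was the higher gene, with 1015 against 565 and 1818 in DMSO cells (0.84 ± 0.15).

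Of 23 DNA replication genes, 2 were lower (8.7%), Rrm2, a ribonucleotide reductase subunit (-0.80 ± 0.17), and Mcm6, a helicase subunit (-0.44 ± 0.15). Of 20 p53 and growth arrest genes, Cdkn1c, a cyclin-dependent kinase inhibitor, was lower (-0.62 ± 0.15). The shares of 8.7% and 5% stand beside 5.11% of all tested genes called lower and 9.8% called in either direction.

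Interferon-induced genes gave few calls between the inhibitors and many excesses over DMSO. Of 35 tested, 3 were higher and 0 lower, with a median of 0.07. The share was 8.57%, beside 4.69% of all tested genes called higher and 9.8% called in either direction. The calls included Ifi27 (0.35 ± 0.12) and Bst2, tetherin (0.34 ± 0.12). With differences centred on the median gene, neither of these kept its call. The median of DMSO minus ethanol in the authors' deposited table was -0.64, with 22 genes past the adjusted p, all lower. The excess over DMSO was called for 15 of the 35 genes, all above 0, and for 6 with the largest SE. Bst2 had 6381 with I-CBP112, 5028 with C646, 5419 with ethanol and 3284 with DMSO. Irf7, the factor that amplifies the interferon response, had 4073, 3289, 3381 and 1765 in the same order, an excess of 1.25 ± 0.19 (adjusted p = 5.83e-08). Oas3, an RNA sensor, had 512, 507, 484 and 98.4, an excess of 2.32 ± 0.35. Irf7 and Oas3 were chosen after their values were seen. DMSO cells had the lowest mean of the 4 groups at these 3 genes.

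Inflammatory and complement genes were lower with I-CBP112 where called, with exceptions. Of 19 tested cytokine and NF-kappa-B target genes, 7 were lower and 2 higher, with a median of -0.33. Their median in DMSO minus ethanol was -0.58. Cxcl5, a neutrophil chemokine, had 34.7 with I-CBP112 and 161 with C646 (-2.21 ± 0.37). Cxcl1 and the alarmin Il33 differed by -1.27 ± 0.38 and -1.14 ± 0.31. The monocyte chemokines Ccl2 and Ccl7 were the higher ones, with 305 against 137 (1.16 ± 0.24) and 529 against 299 (0.82 ± 0.25). Of 14 complement genes, 8 were lower and 0 higher, with a median of -0.44, beside -0.67 in DMSO minus ethanol. C4b had 334 with I-CBP112, 804 with C646, 880.4 with ethanol and 137 with DMSO, a difference of -1.27 ± 0.27 and an excess of 1.41 ± 0.38. C3, the central component, differed by -1.05 ± 0.18 and Cfb, factor B of the alternative pathway, by -1.08 ± 0.18.

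Stress pathways gave lower calls in part. Of 25 tested genes of NRF2 and xenobiotic defence, 8 were lower and 1 higher, with a median of -0.30, beside -0.05 in DMSO minus ethanol. Gsta3, a glutathione transferase, had 188 with I-CBP112 and 484 with C646, beside 442 with ethanol and 430.0 with DMSO (-1.36 ± 0.24). I-CBP112 cells had the lowest mean of the 4 groups, and the excess was -1.32 ± 0.34 (adjusted p = 0.00851). Its relative Gsta4 was higher, with 1274 against 868 (0.55 ± 0.19). Osgin1 and Slc7a11, an NRF2 target and the cystine transporter, differed by -1.14 ± 0.25 and -1.07 ± 0.27. Of 24 genes of the integrated stress response, 6 were lower and 0 higher, among them Trib3, a pseudokinase (-1.02 ± 0.18), and Atf5 (-0.49 ± 0.11). The 24 had a median of -0.24, beside -0.28 in DMSO minus ethanol. Of 20 chaperones, Hspb1 (0.60 ± 0.12) and Hsp90aa1 (0.37 ± 0.12) were higher and Herpud1 (-0.35 ± 0.13) was lower. Of 23 immediate early genes, 0 passed the adjusted p and 4 had an unadjusted p below 0.05. Their differences had a median of -0.02 and a median SE of 0.291. Members with differences from -0.66 to 0.75 had no call, so differences of that size could go undetected.

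Genes with an excess over DMSO and a difference between the inhibitors included several in which I-CBP112 and DMSO cells lay on opposite sides of ethanol. Ptgds, a prostaglandin D synthase, had 199 with I-CBP112 and 67.4 with C646, beside 71.8 with ethanol and 19.5 with DMSO. Its difference was 1.56 ± 0.47 and its excess 3.44 ± 0.69 (adjusted p = 0.000179), the highest among genes called in both tests with a mean count of 50 or more. Clu, the extracellular chaperone clusterin, had 13463 with I-CBP112, 4929 with C646, 4759 with ethanol and 3832 with DMSO (1.45 ± 0.18). Cox6b2, a testis form of a cytochrome oxidase subunit, and Mlana, a melanosome protein, had 328 and 229 with I-CBP112 against 173 and 120.1 with C646, and excesses of 2.21 and 2.07. Apol9b had an excess of 1.66, with a near-identical paralog that may share its reads. Serpinb9b, a granzyme inhibitor, was lower with I-CBP112 (-1.28 ± 0.19) but far above DMSO cells, with 392, 950.3, 790.3 and 81.1 in the order I-CBP112, C646, ethanol and DMSO.

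In the other direction, Slc43a2, an amino acid transporter, had 299 with I-CBP112 and 543 with C646, and 468 and 1027 with ethanol and DMSO. I-CBP112 was the lowest and DMSO the highest group, with a difference of -0.86 ± 0.25 and an excess of -1.99 ± 0.35. The matrix proteases Adamts17 and Adamts18 had the same order, with 162 against 327 (-1.01 ± 0.26) and 124 against 237 (-0.94 ± 0.24). Cnmd, chondromodulin, an inhibitor of vessel growth, had 32.9 and 114 with the inhibitors and about the ethanol level, 91.1, with DMSO (92.5), an excess of -1.81 ± 0.55.

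In a small set of the called genes, C646 cells were further from ethanol than I-CBP112 cells. Cacnb4 (ENSMUSG00000017412.15, chr2:52428320-52676831 on the minus strand), a beta subunit of voltage-gated calcium channels, had 626 with I-CBP112 and 287 with C646, beside 878 with ethanol and 814 with DMSO. C646 was the lowest group, and the difference was 1.13 ± 0.27 (adjusted p = 0.000948). It was the only gene called here that also passed the adjusted p in the authors' deposited table for C646, where its log2 fold change was -1.61. Among the 17 genes with a larger change from ethanol under C646, those named here were chosen after their values were seen. Kbtbd8, an adaptor of a ubiquitin ligase, had 91.0 with I-CBP112 and 28.1 with C646 (1.70 ± 0.53). Ncam1, a cell adhesion molecule of nerve and muscle, had 1850.1 with I-CBP112, 1073 with C646 and 1617 with ethanol. Rnu3a, a small nucleolar RNA, had 2432 with I-CBP112, 4870 with C646 and 2907 with ethanol.

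The calls rest on 2 libraries per group and on the spread that the authors' fit shared across the 4 groups. The 501 genes called with the largest SE were 202 higher and 299 lower ones. Under that SE, 67 of the 166 genes that the rule names lost their call. Of the genes described above, those without a call between the inhibitors under it are Elovl6, Elovl5, Tek, Flt1, Map2, Gap43, Mef2c, Ptgds, Cox6b2, Tpm1, Myl4, Casq2, Hcn4, Nppa, Tbx2, Myocd, Tbx20, Phip, Hdac9, Hdac7, Thbs2, Sfrp2, Notch3, Heyl, Ltbp1, Bambi, Car8, Map3k7cl, Gpnmb, Malat1, Gas6, Pam, Fstl1, Adgre1, Lpl, Tnnt3, Cox6a2, Atp5a1, Slc2a1, Vegfa, Pmvk, Dhcr7, Dgat2, Mcoln1, Gaa, Mki67, Cenpe, Ccnd1, Mcm6, Cdkn1c, Ifi27, Bst2, Cxcl1, Il33, Ccl7, Gsta4, Slc7a11, Atf5, Hsp90aa1, Herpud1, Mlana, Apol9b, Slc43a2, Adamts17, Adamts18, Cacnb4 and Kbtbd8. The called excesses over DMSO fell from 293 to 93, and those described above that were lost are Myoz2, Tbx20, Mfap4, Mfap5, Otogl, Cnn1, Lpin1, Gaa, Abca9, C4b, Gsta3 and Cnmd.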

How the data were processed

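RNA was measured in 8 libraries, 2 per group, which were grouped by their labelled treatment. Per the submitters' processing notes, reads were quantified with kallisto 0.43.1, the build was GRCm38.p5 and genes were tested with DESeq2 (no version stated). The 3 deposited tables hold no values of single libraries, so the depth of each library is unknown and precision comes from the standard errors. In them the authors' signal is 1 mean normalised count per gene, taken over all 8 libraries and identical between tables. The log2 fold change and its standard error are the authors' own, each against a reference that the tables do not name and that was read as ethanol, the group without a table. The deposited Wald score is the fold change over its standard error, and the p-value and adjusted p are the authors' DESeq2 values.

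Group means and 1 dispersion per gene were rebuilt from the 3 tables (Python 3.11.15, numpy 2.4.6, scipy 1.17.1). The formula returned 98.6% to 99.0% of the deposited standard errors, from which the dispersion was itself taken, to within 1%. With each table predicted from the other 2, the share was 97.7% to 97.8%. The difference of 2 fold changes was divided by the SE from the same formula, with a two-sided normal p and Benjamini-Hochberg adjustment over the 14830 genes that have an adjusted p in the I-CBP112 table. The excess over DMSO used the summed variances of the 4 groups. The steps were tested on simulated data, with standard errors made by the same formula from a known dispersion. That test cannot show whether a normal p suits groups of 2 libraries. Group means under 0.5 were set to 0.5 for the variance. The 7 alternatives are given in the closing section.

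Named genes are the 4 factors, Crebbp and Ep300, the 15 highest and 15 lowest called differences and the 8 highest and 8 lowest excesses among genes called in both tests, all with a mean count of 50 or more, up to 4 called members per direction of each of 38 lists or the 2 most abundant, genes also past the adjusted p in the authors' table for C646, and the 10 most abundant called genes. Some genes that this rule takes are not reported here. The comparison and the lists were chosen with earlier results of these data known. Symbols are the authors', positions and gene types were matched to GENCODE M21 for 14807 tested identifiers, and promoter sequences come from RefSeq (GRCm38.p6), with windows for 10429 tested genes.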

Additional observations from a re-analysis of the deposited data

How the results depend on the processing

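No single-library values were analysed here, so leaving out each library was not run. No paired analysis was possible because the deposited tables give no values per library, although every group has libraries numbered 2 and 3. Of the 1453 calls, the largest SE kept 501, with 267 rather than 423 at 2-fold or more and 93 rather than 293 excesses over DMSO. This SE gives no credit for the shared reference. A t distribution with 4 degrees of freedom left 0 calls, 0 at 2-fold and 0 excesses at the adjusted p, with 1491 genes at an unadjusted p below 0.05. Dispersion from the I-CBP112 and C646 tables alone gave 1455 calls, a mean count of 100 or more 1405, all genes with counts 1145, equal group totals 1453 and centring on the median gene 1443. The last 2 moved the share of higher calls from 47.8% to 50.03% and 45.3%. Over all genes with counts, the Pearson r with DMSO minus ethanol was 0.0896 against 0.539, and the cause was not tested. Of the 166 named genes, 67 lost their call with the largest SE, 157 with the t distribution, 20 with all genes, 2 with equal totals (Herpud1 and Msln) and 3 with centring (Ifi27, Bst2 and Abca5), and 20 were not tested at a mean count of 100 or more.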
